A study of Rattus norvegicus with 31 samples.

Results

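The nuclear-encoded genes of oxidative phosphorylation (OXPHOS) were examined in rat livers after exposure to 3 pesticides alone and in pairs. This pathway was chosen with earlier results of these data known, while its members were set by name. They are rows of the count table whose symbol starts with Ndufa, Ndufb, Ndufc, Ndufs, Ndufv, Uqcr or Atp5. Also taken were rows starting with the prefixes of the cytochrome c oxidase families from Cox4 to Cox8. Sdha, Sdhb, Sdhc and Sdhd were added, and the Ndufaf assembly factors were left out. Of the 26312 rows, 92 matched, and 90 of these reached 2 counts when all 31 libraries were added up and were thus among the 19904 genes tested. The 90 genes fell into 39 of complex I, 4 of complex II, 9 of complex III, 20 of complex IV and 18 of complex V. By role, 20 were assigned as core subunits, 54 as accessory subunits and 5 as isoforms known from other tissues. A further 9 are paralogs or second rows of a symbol, and 2 share only the name. The core class is wider than the catalytic subunits and takes in, for example, Atp5e of the ATP synthase rotor. The livers came from female Wistar (Crl:WI) rats gavaged daily for 28 days. Of the rats, 8 received the vehicle, aqueous carboxymethyl-cellulose, and served as controls, and all 6 treatments were given in the same vehicle. Thiacloprid (THI, a neonicotinoid insecticide) was given at 108 mg/kg bw/day to 4 rats. Imazalil (IMZ, an azole fungicide) was given at 93 mg/kg bw/day to 4 rats. Clothianidin (CTD, a neonicotinoid insecticide) was given at 288 mg/kg bw/day, and 3 rats of this group were sequenced. The paper marks this CTD group, alone among the groups sequenced, for loss of rats killed when moribund. The 3 CTD rats are those that remained. The mixtures were given to 4 rats each, as THI + IMZ at 54 and 46 mg/kg bw/day, THI + CTD at 54 and 134 mg/kg bw/day, and IMZ + CTD at 46 and 135 mg/kg bw/day.

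In oxidative phosphorylation, complexes I and II pass electrons from NADH and succinate to ubiquinone, complex III passes them on to cytochrome c, and complex IV reduces oxygen. The protons pumped by complexes I, III and IV drive ATP synthesis by complex V. Most subunits are encoded in the nucleus, while a small set of core subunits of complexes I, III, IV and V is encoded by mitochondrial DNA, and complex II is encoded wholly in the nucleus. Hepatocytes are rich in mitochondria, and the nuclear transcription factors NRF1, GABPA (an ETS factor) and YY1 are known regulators of these genes.

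The promoters of 4 members are shown because the results below turn on them. Atp5j2 (named Atp5mf in RefSeq, an accessory subunit of the membrane part of ATP synthase), Ndufa2 (an accessory subunit of complex I) and Uqcr10 (a small accessory subunit of complex III) passed the threshold against control in 2 comparisons each, and Ndufb7 (an accessory subunit of complex I) had the smallest p-value of all members. The sequences are from RefSeq on the build GRCr8, hold the 250 bases before the start of the gene, and are read 5′ to 3′ along the gene at chr12:14535185-14535434 (plus strand), chr18:28631885-28632134 (minus strand), chr14:83791915-83792164 (minus strand) and chr19:41477292-41477541 (minus strand). Capitals mark the match to the ETS core CCGGAAG on either strand.
Atp5j2: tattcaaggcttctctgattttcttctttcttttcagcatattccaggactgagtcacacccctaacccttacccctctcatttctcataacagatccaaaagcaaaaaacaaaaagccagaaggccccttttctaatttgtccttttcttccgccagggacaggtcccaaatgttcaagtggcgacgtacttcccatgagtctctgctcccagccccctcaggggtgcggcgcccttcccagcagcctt
Ndufa2: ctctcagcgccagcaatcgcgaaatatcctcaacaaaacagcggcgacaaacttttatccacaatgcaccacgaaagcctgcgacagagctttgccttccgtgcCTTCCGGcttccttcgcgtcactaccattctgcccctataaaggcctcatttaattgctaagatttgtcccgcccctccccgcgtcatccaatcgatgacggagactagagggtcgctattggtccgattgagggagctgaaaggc
Uqcr10: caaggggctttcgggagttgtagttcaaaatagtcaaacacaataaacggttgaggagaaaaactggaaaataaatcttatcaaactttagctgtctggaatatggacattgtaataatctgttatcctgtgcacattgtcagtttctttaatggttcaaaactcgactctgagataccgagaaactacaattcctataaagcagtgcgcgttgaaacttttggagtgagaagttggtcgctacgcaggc
Ndufb7: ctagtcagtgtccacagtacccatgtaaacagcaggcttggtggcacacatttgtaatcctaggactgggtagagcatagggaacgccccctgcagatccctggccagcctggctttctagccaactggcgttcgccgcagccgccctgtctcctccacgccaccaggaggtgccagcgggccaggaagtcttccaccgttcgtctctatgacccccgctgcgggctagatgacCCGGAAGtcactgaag

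The windows searched ran from 250 bases before to 50 bases after the start, on both strands, for GCGCATGC (core of the NRF1 site), CCGGAAG and AAGATGGCG (core of the YY1 site). The ETS and YY1 cores can overlap where AAG closes one and opens the other. In Ndufb7 the ETS core lay 16 bases before the start, and in Ndufa2 its reverse complement began 146 bases before it. The YY1 core was found after the start in Atp5j2, at base 37, and in Ndufa2, at base 27, outside the stretches printed above. Uqcr10 held none of these letters in its window. RefSeq promoters were matched for 78 of the 90 rows, which are 74 different genes. Among them, 20 promoters (27%) held the ETS core against 8.75% of all 33469 promoters, 10 (13.5%) held the YY1 core against 1.73%, and 9 (12.2%) held the NRF1 core against 2.47%. Of the 17 promoters of the genes that fell with CTD, described below, 8 held the ETS core, 4 the YY1 core and 1 the NRF1 core. These are matches of letters and not measured binding sites.

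Depth ranged from 31820322 to 101230067 counts per library, and 78 of the 90 members had an average log2 CPM (counts per 1000000 counts, after TMM scaling) above 0, as did 11297 of all genes. The 7 hepatocyte markers summed to between 117200 and 200100 CPM in every rat, so the libraries carried the labelled tissue. Over all genes, 108 passed an adjusted p of 0.05 with THI, 50 with IMZ, 2518 with CTD, 235 with THI + IMZ, 873 with THI + CTD and 290 with IMZ + CTD. All 6 comparisons share the same 8 controls. The labels do not say more of each library than its rat's group and number, so p-values measure the spread between these rats, and the counts of no pair of rats in a group agreed within sampling noise. In whole liver, fewer cells of a type and less RNA per cell cannot be told apart.

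The largest number of OXPHOS genes passed the test with CTD, and nearly all of the changes were decreases. Of the 90 members, 19 were down-regulated and 1 was up-regulated in the livers of CTD rats (edgeR quasi-likelihood test, adjusted over all genes). DESeq2 called 24 lower and 1 higher. Over all genes tested, 6.03% were down-regulated and 6.62% up-regulated by CTD. Of all 90 members 74 had a log2 fold change below 0, with a median of -0.16, while the median over all genes tested was -0.07. Among genes with an average log2 CPM above 0, the median was -0.14 for the 78 members and -0.01 for all 11297, and 9.67% of the 11297 were down-regulated, against 19 of the 78. Every CTD rat lay below every control in 22 of the 90 members, and none lay above in any, whereas 5.48% of all genes had all CTD rats below and 5.33% had all above. The decreases were moderate, from 17.7% to 34.7% for 18 of the 19 genes.

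**Figure D1:**
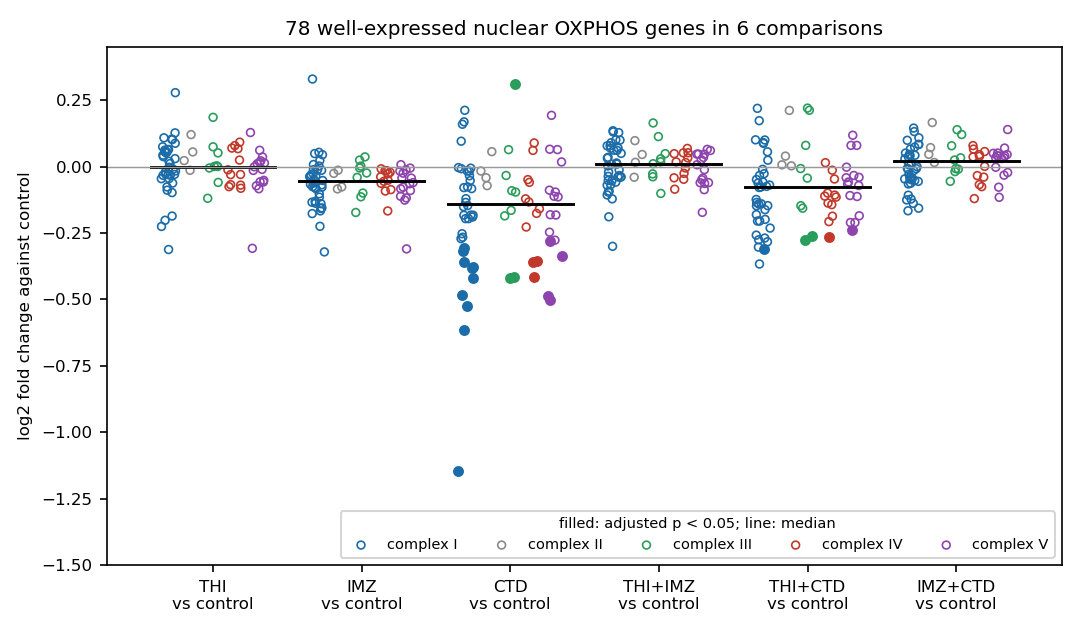
Log2 fold change against control (vertical axis) of the 78 nuclear OXPHOS genes with an average log2 CPM above 0 in the 6 comparisons (horizontal axis), coloured by complex, with filled points for adjusted p under 0.05 and a black line at the median. The CTD points reach lowest, with a median of -0.14, and 19 filled points lie below 0 and 1 above.

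Complex I, the NADH dehydrogenase, held 10 of the 19 decreases among its 39 members. The largest was in Ndufb7. Its level was 46.2 CPM in the lowest control, 50.5 at the median and 57.9 in the highest, and 19.4, 25.1 and 24.9 CPM in the 3 CTD rats. The CTD rats therefore lay far below all other rats of the series, where the lowest value was 39.5 CPM. The log2 fold change was -1.14 ± 0.10 (SE), a decrease of 54.8%, with an adjusted p of 6.5e-09 by edgeR. Tecr, the next gene on the chromosome in RefSeq (looked up after the values of Ndufb7 were seen) and an enzyme of fatty acid elongation, had a log2 fold change of 0.24 ± 0.10 with CTD (adjusted p = 0.121, edgeR).

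Ndufa3, Ndufa11 and Ndufa2, further accessory subunits of complex I, also fell clear of the controls. Ndufa3 ranged from 40.9 to 52.6 CPM in controls with a median of 48.6, and stood at 30.9, 33.0 and 35.0 CPM in the CTD rats. Its log2 fold change was -0.52 ± 0.09 (adjusted p = 0.000104, edgeR). Ndufa11 ranged from 118 to 140 CPM in controls with a median of 129, against 84.0, 101.2 and 89.2 CPM with CTD. The groups did not overlap for this gene either, and the log2 fold change was -0.48 ± 0.08 (adjusted p = 7.91e-05, edgeR). Ndufa2 ranged from 44.8 to 52.7 CPM in controls with a median of 48.9, against 35.0, 36.8 and 37.6 CPM with CTD, a log2 fold change of -0.42 ± 0.08 (adjusted p = 0.00078, edgeR).

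The other complex I genes that fell were Ndufa7, Ndufa8, Ndufa9, Ndufa13, Ndufb10 and a second row of the accessory subunit Ndufv3, listed in capitals as NDUFV3. Ndufa13, also known as GRIM-19 and tied to cell death by interferon and retinoic acid, went from a control range of 64.9 to 77.3 CPM to 48.8, 59.6 and 59.1 CPM (log2 fold change -0.31 ± 0.09). Ndufa7 went from 56.3 to 67.2 CPM in controls to 44.1, 52.5 and 51.6 CPM (log2 fold change -0.32 ± 0.08). Ndufa9 and Ndufb10 passed the test although 1 CTD rat each reached into the control range, at 76.9 CPM for Ndufa9 and 43.9 CPM for Ndufb10. NDUFV3 stood at 22.0 to 26.98 CPM in controls and at 16.1, 15.9 and 14.4 CPM with CTD, a log2 fold change of -0.61 ± 0.13 (adjusted p = 0.00102, edgeR). The row written Ndufv3 had a log2 fold change of -0.08 ± 0.13 (adjusted p = 0.728, edgeR). The sequences of these rows were not compared, and how reads were split between them is uncertain.

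The catalytic core of complex I, which carries the flavin and the iron-sulfur clusters, did not pass the test in any of its 7 nuclear members by edgeR (3 at an unadjusted p under 0.05) or by DESeq2. Ndufs1, which holds iron-sulfur clusters of the NADH-binding arm, ranged from 116 to 130 CPM in controls with a median of 121, and stood at 118, 161 and 147 CPM with CTD. Its log2 fold change of 0.21 ± 0.10 did not pass (adjusted p = 0.173, edgeR), and 1 of the 3 rats lay within the controls. Ndufv1, the flavin-binding subunit, had a log2 fold change of -0.02 ± 0.08 (adjusted p = 0.935, edgeR). Over all complexes, 1 of 20 core genes and 16 of 54 accessory genes were down-regulated by CTD in edgeR. The median log2 fold changes of the 20 and the 54 genes were -0.06 and -0.17. At an unadjusted p under 0.05 in edgeR, in either direction, there were 7 core and 25 accessory genes. DESeq2 called 3 core and 19 accessory genes lower.

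**Figure D2:**
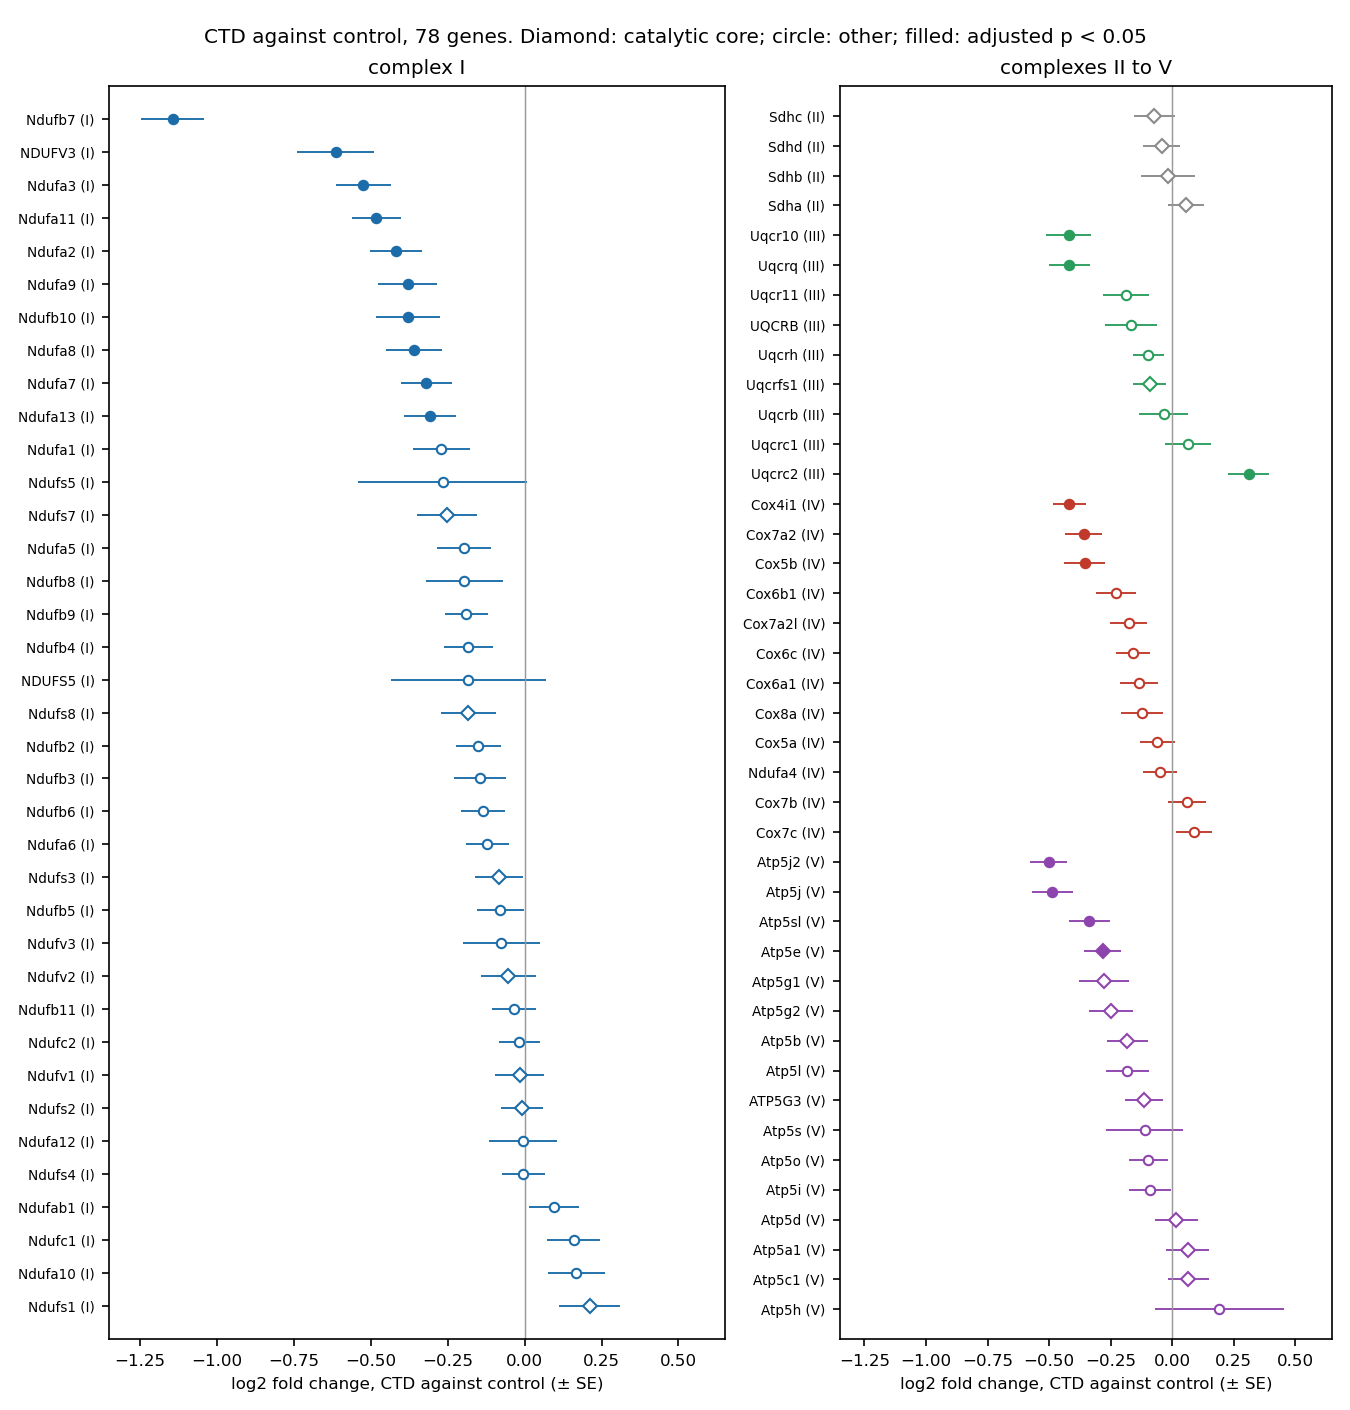
Log2 fold change of CTD against control with its SE (horizontal axis) for the 78 genes with an average log2 CPM above 0, named on the vertical axis with their complex, complex I on the left and complexes II to V on the right. Diamonds, labelled catalytic core, are core subunits in the wider sense of the text, and circles are other members. Filled symbols passed an adjusted p of 0.05. Of the 20 filled symbols 1 is a diamond (Atp5e, not a catalytic subunit) and 1 lies above 0 (Uqcrc2).

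Complex II, succinate dehydrogenase, is shared with the citric acid cycle and showed no member past the threshold with CTD by edgeR (0 at an unadjusted p under 0.05) or by DESeq2. Sdha, the flavoprotein, had 302 to 333 CPM in controls with a median of 311, and 306, 378 and 297 CPM with CTD, which overlapped (log2 fold change 0.06 ± 0.07). Sdhb, the iron-sulfur subunit, had a log2 fold change of -0.02 ± 0.11. The 4 log2 fold changes lay between -0.07 and 0.06.

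In complex III, 2 of 9 members fell and 1 rose. Uqcr10 ranged from 39.8 to 48.6 CPM in controls with a median of 42.3, against 30.8, 30.8 and 35.3 CPM with CTD. The groups did not overlap, and the log2 fold change was -0.42 ± 0.09 (adjusted p = 0.00201, edgeR). Uqcrq, which lies close to cytochrome b, showed the same pattern with 128 to 149 CPM in controls and 98.3, 102 and 100.9 CPM with CTD (log2 fold change -0.42 ± 0.08). Uqcrc2, one of the large core-named proteins on the matrix side, was the only member past the threshold upward. It had 157 to 188 CPM in controls with a median of 167, and 180, 243 and 203 CPM with CTD, so that 1 CTD rat lay within the control range. Its log2 fold change was 0.31 ± 0.08 (adjusted p = 0.0108, edgeR), and without CTD replicate 2 it was 0.19 with an adjusted p of 0.217. Its partner Uqcrc1 had a log2 fold change of 0.06 ± 0.09, and the Rieske iron-sulfur protein Uqcrfs1 one of -0.09 ± 0.07, and neither passed.

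In complex IV, cytochrome c oxidase, 3 of 20 members fell. Cox4i1, the subunit through which ATP is known to regulate the enzyme, had 251 to 281 CPM in controls with a median of 269, and 190, 191 and 220 CPM with CTD. The groups did not overlap, and the log2 fold change was -0.42 ± 0.07 (adjusted p = 6.62e-05, edgeR). Cox5b, a zinc-binding subunit, and Cox7a2, the liver form of subunit VIIa, fell with log2 fold changes of -0.35 ± 0.08 and -0.36 ± 0.07. Cox5a had a log2 fold change of -0.06 ± 0.07 and did not pass (adjusted p = 0.627, edgeR).

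In complex V, the ATP synthase, 4 of 18 members fell, among them 1 core gene. Atp5j2 ranged from 106 to 120 CPM in controls with a median of 112, against 73.3, 79.3 and 86.1 CPM with CTD, a log2 fold change of -0.50 ± 0.08 (adjusted p = 2.45e-05, edgeR). Atp5j, coupling factor 6 of the peripheral stalk, had 29.6 to 36.0 CPM in controls and 22.8, 24.2 and 22.8 CPM with CTD, a log2 fold change of -0.49 ± 0.08. Atp5e, the epsilon subunit of the rotor, had 104 to 115 CPM in controls and 86.3, 90.6 and 88.7 CPM with CTD, a log2 fold change of -0.28 ± 0.08 (adjusted p = 0.0116, edgeR). In all 3 genes every CTD rat lay below every control. Atp5sl, which shares only the name, had a log2 fold change of -0.34 ± 0.08. The catalytic pair did not pass. Atp5a1 had 745.5 to 845 CPM in controls and 726, 951 and 795 CPM with CTD (log2 fold change 0.06 ± 0.09), and Atp5b had 1570 to 1704 CPM in controls and 1307, 1586 and 1424 CPM with CTD (log2 fold change -0.18 ± 0.08, adjusted p = 0.163, edgeR).

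**Figure D3:**
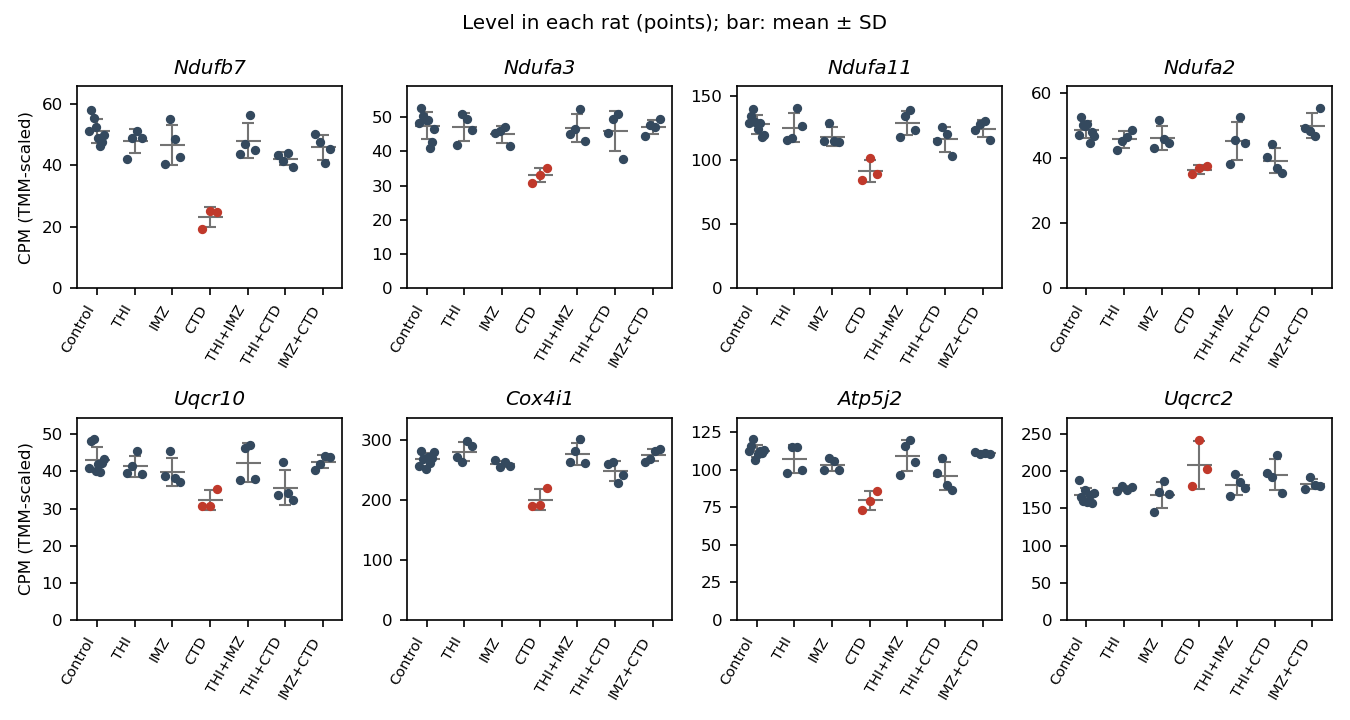
Level of 8 nuclear OXPHOS genes in CPM (vertical axes, starting at 0) in each of the 31 rats (points) by group (horizontal axes), with the mean and SD of each group in grey and CTD in red. In 7 panels every red point lies below every control, and for Uqcrc2 the red points are at 180, 243 and 203 CPM with the lowest inside the control range.

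The number of decreases was lowest without 1 CTD rat, as was the number of calls over all genes. The mean log2 deviation of the 78 members from the control mean was -0.30, -0.07 and -0.13 in CTD replicates 1, 2 and 3. In the controls it lay between -0.06 and 0.08. Without CTD replicate 1, the rat with the lowest value, 12 of the 19 decreases remained and the median of the 90 members was -0.10. Calls over all genes, in either direction, went from 2518 to 1470 in that fit. The member decreases lost were Ndufa7, Ndufa8, Ndufa9, Ndufa13, Ndufb10, Cox5b and Atp5e. Without CTD replicate 2 there were 23 decreases and without CTD replicate 3 there were 21, and each included all 19. Calls over all genes were 1781 and 2311 in these fits.

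Markers of cell types and markers of dividing cells moved with CTD as well. Of the 4 red blood cell markers 4 rose, and their sum ranged from 152 to 184 CPM with CTD against 18.8 to 61.5 CPM in controls. Of the 8 markers of dividing cells 8 rose. Their sums were 162, 56.1 and 44.7 CPM in CTD replicates 1, 2 and 3, against 5.92 to 16.8 CPM in controls. Of the 7 hepatocyte markers 2 fell, Tat and Ass1, while the sum of the list was 144900 to 160300 CPM with CTD against 135800 to 193100 CPM in controls. Of the 7 Kupffer cell markers 2 fell, of the 8 stellate cell markers 1 rose and 1 fell, and of the 7 endothelial markers 1 fell. No marker of T and NK cells (2 at an unadjusted p under 0.05), of B and plasma cells or of muscle (both 0) passed in edgeR or in DESeq2, and the muscle list summed to at most 1.1 CPM in any rat. The part of these shifts in the values of the OXPHOS genes was not tested.

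The 13 OXPHOS genes encoded by mitochondrial DNA moved in the opposite direction. With CTD, 11 of the 13 rose, none fell, and the median log2 fold change was 0.91. DESeq2 called 12 higher and none lower. ND3, a core subunit of complex I, ranged from 94.8 to 152 CPM in controls with a median of 124, against 271, 251 and 289 CPM with CTD. The groups did not overlap and the log2 fold change was 1.13 ± 0.11 (adjusted p = 1.25e-08, edgeR). MT-ATP8 had 0.44 to 0.80 CPM in controls and 2.73, 4.497 and 6.03 CPM with CTD (log2 fold change 2.75 ± 0.26), and MT-ND4L had 2.23 to 3.36 CPM in controls and 8.38, 7.60 and 7.26 CPM with CTD (log2 fold change 1.51 ± 0.16). Both are low genes that overlap a neighbour on mitochondrial DNA, so their reads cannot be assigned with certainty. The smallest rises that passed were MT-CO2, with a log2 fold change of 0.47 ± 0.12, and CYTB, with 0.48 ± 0.16. Without CTD replicate 3, 8 of the rises remained, and ND1, MT-CO2 and CYTB no longer passed. COI and MT-ND6 did not pass with all rats, at 0.33 ± 0.13 and 0.54 ± 0.21 (adjusted p = 0.0896 and 0.0867, edgeR).

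As a share of all counts, the mitochondrially encoded genes took 1.79%, 1.53% and 1.99% in the CTD rats and 0.88% to 1.51% in controls, which did not overlap. The 90 nuclear genes took 0.84%, 0.93% and 0.88% with CTD and 0.85% to 0.98% in controls, which did. For the mitochondrially encoded genes the highest rat of each mixture also lay above all controls. These rats stood at 1.85% with THI + IMZ, 1.568% with THI + CTD and 1.571% with IMZ + CTD. The medians of these groups were 1.382%, 1.402% and 1.358%, within the control range. The nuclear share weighs the genes by their counts, and highly counted genes such as Atp5b and Atp5a1 were not among those that fell. Unlike the fold changes, it is taken without TMM scaling, whose mean factor was 1.038 with CTD and 0.9857 in controls. The part of weighting and of scaling in this overlap was not tested.

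**Figure D4:**
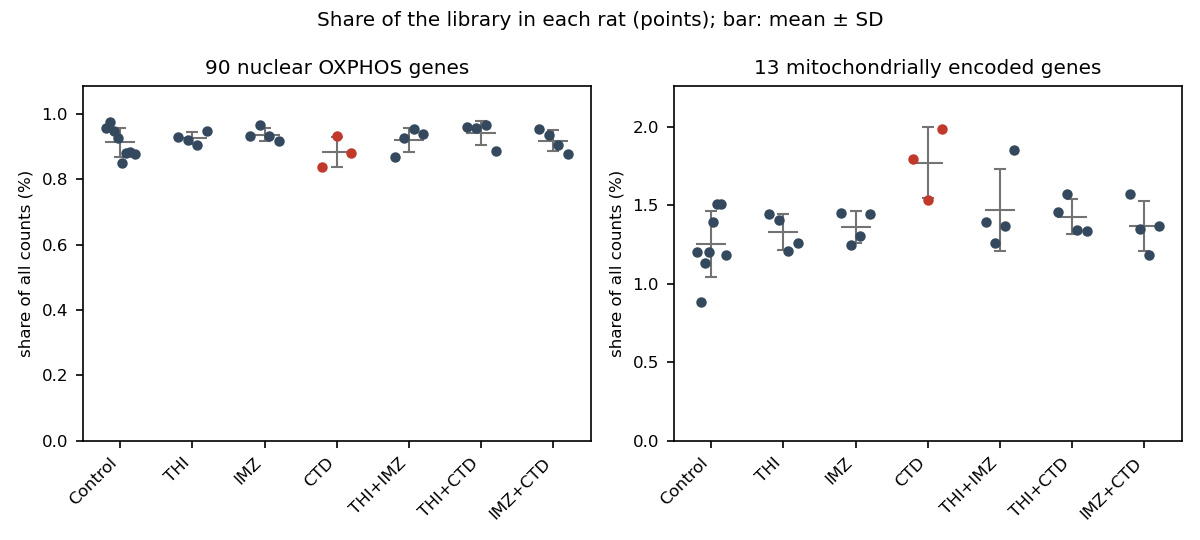
Share of all counts in percent (vertical axes, starting at 0) taken by the 90 nuclear OXPHOS genes (left) and by the 13 mitochondrially encoded genes (right) in each rat (points) by group, with the mean and SD in grey and CTD in red. On the right the 3 CTD rats, at 1.53% to 1.99%, lie above all controls, as does the highest rat of each mixture. On the left the CTD and control groups overlap.

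Other gene lists of the same pathway moved less uniformly with CTD. Among 20 regulators of mitochondrial biogenesis, 5 rose and 1 fell. Tfb1m and TFB2M, which modify mitochondrial ribosomal RNA or start mitochondrial transcription, rose by 0.66 ± 0.12 and 0.50 ± 0.13 (log2), and Tfam, which packages mitochondrial DNA, by 0.28 ± 0.09. Polrmt, the mitochondrial RNA polymerase, fell by 0.36 ± 0.10 on the log2 scale. Gabpa rose by 0.32 ± 0.09 (adjusted p = 0.0117, edgeR), while Nrf1, Esrra and the coactivator Ppargc1a had log2 fold changes of -0.16 ± 0.12, -0.15 ± 0.10 and -0.44 ± 0.33 and did not pass. Of 22 electron carriers and transporters, cytochrome c (Cycs) rose by 0.53 ± 0.10 and Etfdh by 0.30 ± 0.08, while Etfb, a subunit of the electron-transferring flavoprotein, fell from 161 to 194 CPM in controls to 98.7, 120 and 128 CPM. CYC1, the cytochrome c1 of complex III, had a log2 fold change of 0.11 ± 0.10. Of 39 assembly factors 3 rose, Tmem70, Ndufaf4 and Cox16, and 2 fell, Cox14 and Coa3, both factors of complex IV. Of 19 citric acid cycle genes 4 rose, led by Dlat and Pdha1 of pyruvate dehydrogenase, and 4 fell, led by Ogdh at -1.06 ± 0.14 and Mdh2 at -0.45 ± 0.09. Of 77 mitochondrial ribosomal proteins 1 rose (Mrpl51) and 7 fell, among them Mrpl40 at -1.32 ± 0.14. The medians of these 5 lists lay between -0.04 and 0.09. As shares of each list, 7.69% of the assembly factors rose and 5.13% fell, 9.09% of the carriers rose and 4.55% fell, and 1.30% of the ribosomal proteins rose and 9.09% fell. These shares are close to or below those of all genes, or of genes with an average log2 CPM above 0 (9.9% higher and 9.67% lower), and are not read as results about these 3 lists. The shares were 25% higher and 5% lower for the regulators, and 21.1% in each direction for the citric acid cycle.

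THI and IMZ alone left the nuclear OXPHOS genes below the threshold. With THI, 0 of 90 members passed in edgeR (5 at an unadjusted p under 0.05) and 0 in DESeq2, where edgeR called 0.543% of all genes. The median log2 fold change was -0.0018. Ndufa8, which fell with CTD, had 68.1, 75.4, 74.98 and 67.8 CPM with THI against 76.4 to 84.2 CPM in controls, and Uqcrc1 had 197, 200, 218 and 211 CPM against 167 to 191 CPM. These 2 genes did not overlap with the controls but did not pass (adjusted p = 0.501 and 0.523, edgeR), and 0.688% and 0.734% of all genes had all THI rats below or above all controls. With IMZ, 0 of 90 members passed in edgeR (3 at an unadjusted p under 0.05) and 0 in DESeq2, where edgeR called 0.251% of all genes. The median was -0.05, and 73 of the 90 members lay below 0, while over all genes the median was -0.02 and 10644 of 19904 lay below 0. The median moved to -0.0095 without IMZ replicate 1, and the mean deviation of the members was above 0 in IMZ replicate 2, at 0.03, and -0.01 in IMZ replicate 3. Uqcrh, the hinge protein of complex III, had 67.7, 75.5, 75.7 and 70.0 CPM with IMZ against 76.3 to 87.5 CPM in controls, below every control, with a log2 fold change of -0.17 ± 0.06 (adjusted p = 0.297, edgeR), and 0.553% of all genes had all IMZ rats below all controls. No mitochondrially encoded gene passed with THI or IMZ in edgeR (1 each at an unadjusted p under 0.05) or DESeq2. Ndufb7 had a log2 fold change of -0.10 ± 0.09 with THI and -0.13 ± 0.09 with IMZ. The doses of the 3 compounds differ, so their values are given side by side only.

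With THI + IMZ, 0 of 90 members passed in edgeR (2 at an unadjusted p under 0.05) and 0 in DESeq2, where edgeR called 1.18% of all genes. The median of the members was 0.01. Of the 8 dividing cell markers, 7 rose by edgeR and 8 by DESeq2. Their sums were 13.4 to 80.7 CPM, against 5.92 to 16.8 CPM in controls. The red blood cell markers rose in 0 of 4 by both tools. Of the mitochondrially encoded genes ND3 rose, by 0.41 ± 0.10 on the log2 scale (adjusted p = 0.0309, edgeR), a call that was lost in 5 of the 31 fits that left out 1 rat, with the replicate number as a block, and when only the groups compared were fitted.

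With THI + CTD, 5 of 90 members were down-regulated and none up-regulated in edgeR, where 1.71% of all genes were down-regulated and 2.67% up-regulated. DESeq2 called 13 lower and 2 higher. All 5 were among the 78 members with an average log2 CPM above 0, and 2.78% of such genes were down-regulated. Of the members 67 lay below 0, with a median of -0.10 against -0.03 over all genes. Uqcrh had 76.3 to 87.5 CPM in controls with a median of 81.7, against 70.3, 68.0, 70.6 and 62.9 CPM in the mixture, and its log2 fold change was -0.26 ± 0.06 (adjusted p = 0.00594, edgeR). Cox6c, a small accessory subunit of complex IV, had 128 to 141 CPM in controls with a median of 132, against 120, 115, 106 and 103 CPM, a log2 fold change of -0.27 ± 0.06 (adjusted p = 0.0116, edgeR). In both genes the mixture lay below all controls, and with CTD alone at its higher dose their log2 fold changes were -0.10 ± 0.06 and -0.16 ± 0.07 and did not pass.

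The other 3 decreases with THI + CTD were in genes that also fell with CTD. Ndufa2 stood at 40.3, 44.2, 37.0 and 35.5 CPM, below all controls (log2 fold change -0.31 ± 0.07, adjusted p = 0.0113, edgeR). Atp5j2 stood at 98.0, 108, 89.8 and 86.5 CPM and Uqcr10 at 33.7, 42.6, 34.1 and 32.2 CPM, in each case with 1 rat inside the control range (log2 fold changes -0.24 ± 0.07 and -0.28 ± 0.08). Ndufb7 stood at 43.4, 41.3, 44.1 and 39.5 CPM, below all controls, with a log2 fold change of -0.28 ± 0.09 that did not pass (adjusted p = 0.0599, edgeR). In all, 7 members had every rat of the mixture below every control, and 1.82% of all genes did. Without THI + CTD replicate 3 only 1 of the 5 calls was left, Uqcrh, and without control replicate 6 there were 8 calls. The call of Uqcr10 was lost in 15 of the 31 fits that left out 1 rat and in 5 of 9 other settings, that of Atp5j2 in 2 of the 9 and that of Cox6c in 1. The mean deviation of the members was lowest in 1 rat at -0.23 and lay between -0.05 and -0.01 in the other 3.

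With this mixture the dividing cell markers rose in 8 of 8 (sums of 16.3 to 50.5 CPM) and the red blood cell markers in 1 of 4 (26.2 to 209.5 CPM), and no mitochondrially encoded gene passed in edgeR (4 at an unadjusted p under 0.05), while DESeq2 called 1 higher. Of the 7 Kupffer cell markers 2 fell, Cd163 and Csf1r, and all 7 lay below 0 with a median of -0.45, and of the 7 endothelial markers 1 fell, Kdr, and all 7 lay below 0 with a median of -0.23. Of the 7 hepatocyte markers 1 fell (Tat), and of the 8 stellate cell markers 1 rose (Col1a1) and 1 fell (Reln). The part of these shifts in the values of the OXPHOS genes was not tested. Pdha1 and Dlat rose as with CTD, by 0.39 ± 0.08 and 0.62 ± 0.16 on the log2 scale. Of the 77 mitochondrial ribosomal proteins 2 fell (2.60%), Mrpl54 and Mrps25, and of the 39 assembly factors 1 rose (2.56%), the copper chaperone Sco1, both shares near those of all genes.

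With IMZ + CTD, 0 of 90 members passed in edgeR (3 at an unadjusted p under 0.05) and 0 in DESeq2, where edgeR called 1.46% of all genes. The median was 0.03, with 50 of the 90 members above 0. Ndufb7 had 50.2, 47.5, 40.7 and 45.2 CPM against 46.2 to 57.9 CPM in controls, so that 2 of the 4 rats lay below all controls. Cox4i1 had 264, 268, 281 and 284 CPM against 251 to 281 CPM, with 1 rat above all controls, and Atp5j2 had 112, 110, 111 and 110 CPM, within the control range of 106 to 120 CPM. The median log2 fold change of the 19 genes chosen for their fall with CTD was -0.02 with IMZ + CTD, -0.20 with THI + CTD, -0.03 with THI + IMZ, -0.05 with THI and -0.08 with IMZ, against -0.42 with CTD. The dividing cell markers rose in 8 of 8 (sums of 25.9 to 71.1 CPM) and the red blood cell markers in 0 of 4 by edgeR and DESeq2 (16.02 to 64.8 CPM, none at an unadjusted p under 0.05). No mitochondrially encoded gene passed in edgeR (0 at an unadjusted p under 0.05) or DESeq2.

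The mixtures held lower doses than the single treatments, so the log2 fold change of each was set against a dose-weighted sum of the single treatments, in which THI and IMZ counted with a weight of 0.5 and CTD with 0.47. For IMZ + CTD, 4 of 90 members passed, all above the sum, where 0.693% of all genes lay above and 0.462% below, and DESeq2 called 11, all above. Ndufb7 had a log2 fold change of -0.16 in the mixture and a weighted sum of -0.60, a difference of 0.45 ± 0.09 (adjusted p = 0.00819, edgeR). For Atp5j the values were 0.05 and -0.26, a difference of 0.31 ± 0.07 (adjusted p = 0.0293, edgeR). Atp5j2 stood at -0.02 against -0.30, a difference of 0.28 ± 0.07, and Cox4i1 at 0.04 against -0.22, a difference of 0.25 ± 0.06. All 4 genes thus lay higher in the mixture than the weighted sum. Of the 78 members with an average log2 CPM above 0, 69 lay above the sum, with a median difference of 0.10, while the median over all 11297 such genes was 0.00. Ndufb7 passed in all 31 fits that left out 1 rat, whereas the count fell to 1 without CTD replicate 1 and without IMZ + CTD replicates 2, 3 or 4, and to 2 without IMZ replicate 3 or 4. Of the mitochondrially encoded genes 13 lay below the sum and 4 passed, MT-ATP8, MT-ND4L, MT-ND2 and ND3, with differences from -1.28 ± 0.28 for MT-ATP8 to -0.45 ± 0.11 for ND3.

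For THI + CTD, 0 of 90 members differed from the weighted sum in edgeR (11 at an unadjusted p under 0.05), where 0.286% of all genes did, and DESeq2 called 1 lower. Here 41 of the 78 members lay above the sum and 37 below, with a median difference of 0.00. Ndufb7 stood at -0.28 against a weighted sum of -0.59, a difference of 0.30 ± 0.09 that did not pass (adjusted p = 0.17, edgeR). MT-ATP8 and MT-ND4L, whose reads are uncertain as described above, passed below the sum, at -1.27 and -0.82. The call of MT-ATP8 was lost in 7 of the 31 fits that left out 1 rat and with the replicate number as a block, and that of MT-ND4L in 3 of the 31. For THI + IMZ, 0 of 90 members differed from the weighted sum in edgeR (0 at an unadjusted p under 0.05) and DESeq2, where edgeR called 0.0151% of all genes. Of the 78 members 64 lay above the sum and 14 below, with a median difference of 0.03, against 0.01 over all 11297 genes. The mixtures share the controls and the CTD rats enter both sums with CTD, so these values are not independent of each other.

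**Figure D5:**
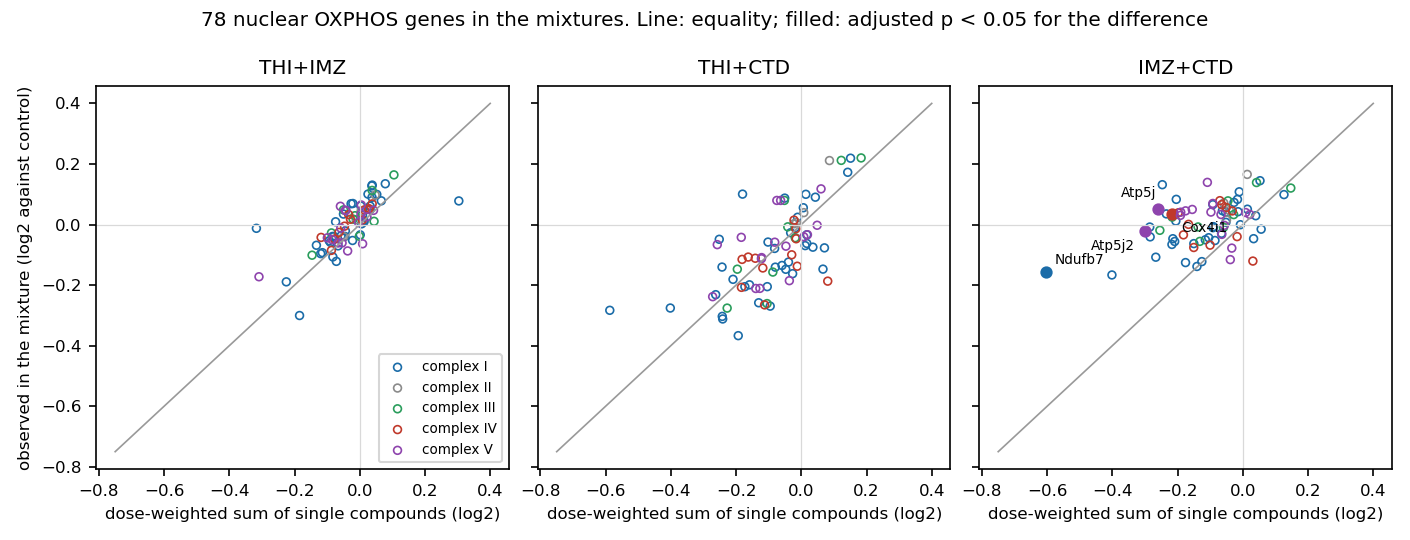
Log2 fold change observed in each mixture (vertical axis) against the dose-weighted sum of the single compounds (horizontal axis) for the 78 nuclear OXPHOS genes with an average log2 CPM above 0, coloured by complex, with the line of equality. With IMZ + CTD, on the right, 69 points lie above the line and the 4 filled ones passed the test of the difference, while with THI + CTD 41 lie above and 37 below.

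Across all 7 groups, 15 of the 90 members differed (26 at an unadjusted p under 0.05) and 9.51% of all genes did. The smallest p-values were those of Ndufb7 (adjusted p = 7.2e-07), Cox4i1, Atp5j2, Atp5j and Ndufa11, all genes that fell with CTD. Without CTD replicate 1 the count was 8.

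The isoforms known from other tissues were close to the limit of detection in these livers. Cox4i2, the lung form of subunit IV, collected 262 counts over all 31 libraries with at most 0.71 CPM in any rat. Cox6b2, the testis form of subunit VIb, collected 238 counts, and in the CTD rats stood at 0.39, 0.23 and 0.43 CPM against 0.03 to 0.28 CPM in controls (log2 fold change 1.51 ± 0.61, adjusted p = 0.105, edgeR). Cox8b, COX6A2 and Cox8c, the forms of heart and muscle or testis, collected 69, 12 and 3 counts. Counts of this size allow no statement on a change. Among the usual subunits, Ndufs6 collected 114 counts and the rows Atp5f1 and ATP5F1 collected 12 and 27. Whether these rows lost reads to similar sequences was not examined.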

How the data were processed

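RNA was extracted from frozen liver pieces of 31 rats, and stranded total RNA libraries were sequenced as paired ends. Per the study's methods and notes, the authors trimmed reads with Skewer, checked them with FastQC 0.11.5 and aligned them with STAR 2.5.2b to Rnor_5.0. The deposited values used here are the raw counts per gene that the authors obtained with STAR, and their table of normalised values was not used. Whether counting used strand is not given in the sources used here, so reads of overlapping genes cannot be told apart. Libraries held 31820322 to 101230067 counts, and the number of rats limits the precision more than depth for the well-expressed genes. The paper lists a lower share of uniquely mapped reads for CTD replicates 2 and 3 than for any other library. The part of this in the CTD values was not tested.

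Genes that reached 2 counts over all libraries together were tested with edgeR 4.0.16 in R 4.3.3 (quasi-likelihood test, TMM factors, 1 fit over all 7 groups), with p-values adjusted by Benjamini-Hochberg over all 19904 genes and a threshold of 0.05. Fold changes were those of the edgeR fit with its default prior count, and CPM used TMM library sizes. A prior count of 2 was used for the log2 CPM behind the mean deviations of each rat. Each treatment was compared with the 8 controls, each mixture with a dose-weighted sum of the single treatments (weights 0.5 and 0.47), and all 7 groups at once. Alternatives were other scalings, DESeq2 1.42.0, other filters, thinned counts, a replicate block, other sample sets and leaving out each rat in turn. The scripts were tested on simulated data. Counts of pairs of rats in a group were compared by chi-square. Each SE printed is the absolute log2 fold change, or difference, divided by the square root of its quasi-likelihood F.

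The OXPHOS genes and gene lists were chosen with earlier results of these data known. Named members were up to 10 past the threshold per comparison (the 5 highest and 5 lowest where there were more), the 5 smallest p-values over the groups, fixed core subunits and tissue isoforms, and members off a weighted sum. From the other lists, up to 5 genes past the threshold, or else the 2 highest and 2 lowest, were named with fixed regulators. Ndufa8, Ndufa9, Ndufb10, Uqcrq, Cox5b, Cox7a2, Ndufv3, ND1, COI, MT-ND6, Tat, Ass1, Cd163, Csf1r, Kdr, Col1a1, Reln and the low rows Ndufs6, Atp5f1 and ATP5F1 were named after their values were seen. Promoters were read from a RefSeq table on GRCr8, and no coordinates on Rnor_5.0 are given.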

Additional observations from a re-analysis of the deposited data

Results flagged for a closer look

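In groups of 4 or 8 rats, 1 rat stood apart from the others of its group in 19 of 223 sets of values by Dixon's test. For normal values chance flags about 1 in 20. That share does not hold for the flagged sets of COX6A2 and Cox8c. There all rats but 1 stood at 0, so that a flag was certain. The number flagged is therefore not read against chance. Among the well-expressed genes, Atp5j was low in 1 THI + IMZ rat at 30.12 CPM, with the others between 35.02 and 35.44 CPM. Atp5sl was high in 1 control at 25.61 CPM (others 17.69 to 21.42 CPM) and in 1 THI + IMZ rat at 21.93 CPM (others 19.28 to 19.6 CPM). Ndufa11 was high in 1 IMZ rat at 129.1 CPM (others 113.8 to 114.5 CPM), Sdhb in 1 control at 140.2 CPM (others 108.9 to 121.2 CPM), and Uqcrfs1 was low in 1 THI rat at 134.6 CPM (others 143.9 to 145 CPM).

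Over the group of genes, 1 THI + CTD rat had the lowest share of counts at 0.8871% (others 0.9555% to 0.9661%) and the lowest mean log2 deviation of the members from the control mean at -0.2341 (others -0.05028 to -0.0133). In IMZ + CTD, 1 rat had the highest deviation of complex I at 0.04231 (others -0.0279 to -0.01602) and 1 rat that of complex IV at 0.02482 (others -0.0141 to -0.00749).

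The other values belong to isoforms with few counts. Cox6b2 reached 0.2803 CPM in 1 control (others 0.03016 to 0.1404 CPM) and 0.4577 CPM in 1 THI + CTD rat (others 0.1703 to 0.2025 CPM), and Cox4i2 reached 0.4045 CPM in 1 THI + CTD rat (others 0.1265 to 0.1686 CPM). COX6A2 was detected in 1 rat each of THI, IMZ, THI + IMZ and IMZ + CTD, at 0.08083, 0.04322, 0.02685 and 0.123 CPM, and Cox8c in 1 rat each of THI and THI + IMZ, at 0.04761 and 0.02685 CPM, with the other rats of those groups at 0.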

How the results depend on the processing

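The 19 decreases with CTD were all called again under 8 of 9 other settings, with 18 to 24 decreases in all, and Atp5sl was lost when only the CTD and control rats were fitted. Leaving out 1 rat at a time gave 12 to 23 decreases, 13 to 23 changed members, a median from -0.185 to -0.0975, and 8 to 12 rises of mitochondrially encoded genes. The counts of CTD decreases and of these rises under other settings were chosen after seeing the data. With THI + CTD, 5 members passed, against 15 with DESeq2, 13 with edgeR's filterByExpr, 4 to 6 in the other settings and 1 to 8 when 1 rat was left out. Of these 5 calls, Uqcr10 was lost with the size factors of DESeq2, without a filter, with thinned counts, with the replicate block and with only the groups compared, Atp5j2 with the last 2 of these and Cox6c with the block. Off the weighted sum of THI + CTD there were 0, against 1 with DESeq2, 1 with filterByExpr and 0 to 1 with 1 rat left out. Off that of IMZ + CTD there were 4, against 11 with DESeq2, 7 with only the groups compared and 1 to 5 with 1 rat left out. Over the 7 groups 15 members differed, against 25 with DESeq2 and 8 to 19 with 1 rat left out. The cause of these differences was not tested. No call changed direction. The labels do not say that a replicate number marks a shared origin. Same-numbered rats of different groups had a median correlation of 0.0334 (range -0.28 to 0.399), and differently numbered rats one of -0.00607 (range -0.371 to 0.44), so the numbers were not used to pair rats, and a shared origin is not excluded. With the replicate block there were 22 decreases and no increase with CTD, so that Uqcrc2 was lost. The counts with the block were 5 with THI + CTD, 4 off the sum of IMZ + CTD and 15 over the groups. The first 2 of these counts do not hold the same genes, since Cox6c, Uqcr10 and Atp5j2 were lost with THI + CTD, and Cox4i1 off the sum of IMZ + CTD.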
